A study of Danio rerio with 8 samples.

Results

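Clusters c2 and c4 were compared gene by gene in single cells sorted from zebrafish flank skin. They were taken as the authors' deposited cluster numbers give them, with 176 cells in c2 and 82 cells in c4, together 258 of the 646 cells of the series. The other 388 cells belonged to c1 (194), c3 (122) and c5 (72). Adult untreated fish carried the reporters pnp4a:palmmCherry and pnp4a:nlsEos, in which regulatory elements of pnp4a drive a red fluorescent protein at the membrane and a photoconvertible one in the nucleus. Dark stripe skin and light interstripe skin were dissected and dissociated separately, the skin of different fish being combined, and single cells bright in both colours were sorted into 4 plates of each skin. All clusters share this genotype, tissue and gate. Their skin of origin was not the same: the study reports that most c2 cells came from stripe skin and most c4 cells from interstripe skin. Differences between c2 and c4 are therefore in part mixed with the skin of origin, and the share of it was not tested. The deposited summaries pool both skins and all 8 plates, so a cluster is 1 set of cells here, with no replicate, and neither the plate nor the fish behind a difference can be given. Clustering used the expression values that are set side by side here. The differences are therefore descriptions without a test, and SDs and intervals cover cells and counting only, not the variation between fish.

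Zebrafish skin pattern is built by black melanophores, yellow to orange xanthophores and reflective iridophores, all derived from the neural crest. Iridophores reflect light from stacked crystals of purines, and the enzyme encoded by pnp4a, a purine nucleoside phosphorylase, is a widely used marker of them. They form a dense sheet in the light interstripes and are loosely arranged in the dark stripes. The study described both c2 and c4 as lower in markers of iridophores and also of other pigment cells. It proposed that their cells may not be fully differentiated. The comparison addressed here is in what way those clusters differ from each other.

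For each gene, 3 values were set side by side as c2 minus c4. They were the share of cells above 0 in percent, the mean over the cells that expressed the gene, and the mean over all cells, the last 2 in natural log (ln) of the depth-corrected count plus 1. Genes that reached 10% of cells in either cluster were kept, which left 2381 of 19914 features. Differences of at least 20 percentage points, or of at least 0.5 on the ln scale, were counted by size. The filter was not even between the clusters. Of the 2381 genes, 931 reached it in both, 1435 in c4 alone and 15 in c2 alone, so most genes entered because they were frequent in c4, and counts of genes lower in c2 follow in part from that. Just inside it, cd63 was found in 10.2% of c2 cells and 6.10% of c4 cells, and just outside it, znf292b was found in 5.11% of c2 cells and 9.76% of c4 cells.

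The most general difference was how many genes per cell were above 0 after depth correction, which can raise or remove low values. A cell of c2 had on average 740 such genes, against 1395 in c4, 789 in c1, 846 in c3 and 815 in c5. Thus c2 had the fewest and c4 the most, and depth before correction was not analysed here. The median gene was found in 7.95% of c2 cells and 29.3% of c4 cells. In c2, 4 genes were found in every cell, against 32 in c4. Among the genes that passed the filter, the level in expressing cells was higher in c2, with a median over genes of 1.86 in c2 and 1.31 in c4. That direction depended on the filter. By size, 1284 genes were higher and 1659 lower in c2 at 5% of either cluster, and 1434 higher and 2577 lower with no filter. Both lay below c1 (2.35), c3 (2.31) and c5 (2.41). Very low levels marked c4: the mean of expressing cells lay under 2 corrected counts for 57 genes in c2 and for 685 in c4. The numbers were 295 in c1, 230 in c3 and 328 in c5. Summed over all features, the ln means came to 1256 in c2 and 2174 in c4, against 1612 in c1, 1696 in c3 and 1731 in c5. The 50 most abundant genes made up 10.2% of the summed ln means in c2 and 7.36% in c4.

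Gene by gene, detection went almost entirely one way. The share of cells was lower in c2 than in c4 for 2355 of 2381 genes (98.9%), with a median difference of -20.1 percentage points. It was at least 20 points lower in c2 for 1196 genes (50.2%) and at least 20 points higher for 0 genes (0%). Expressing cells showed the opposite sign more often. Over the 2362 genes with at least 3 expressing cells in both clusters, the median difference was 0.44, with 1102 genes higher in c2 by size (46.7%) and 405 lower (17.1%). The mean over all cells joins both. Its median difference was -0.20 (quartiles -0.28 and -0.12), 2289 genes lay below 0 (96.1%), 122 were lower in c2 by size (5.12%) and 2 were higher (0.084%).

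Each difference of means was split exactly into a part from the share of cells and a part from the level in expressing cells. Over all 2381 genes the median part from the share was -0.32 and the median part from the level was 0.11. The 2 parts had these opposite signs in 1700 genes (71.4%). Among the 122 genes lower in c2 the medians were -0.55 and -0.12, and both parts were negative in 98 of them. Those genes were chosen by the sum of both parts, so that both tended to be negative follows from the choice.

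**Figure D1:**
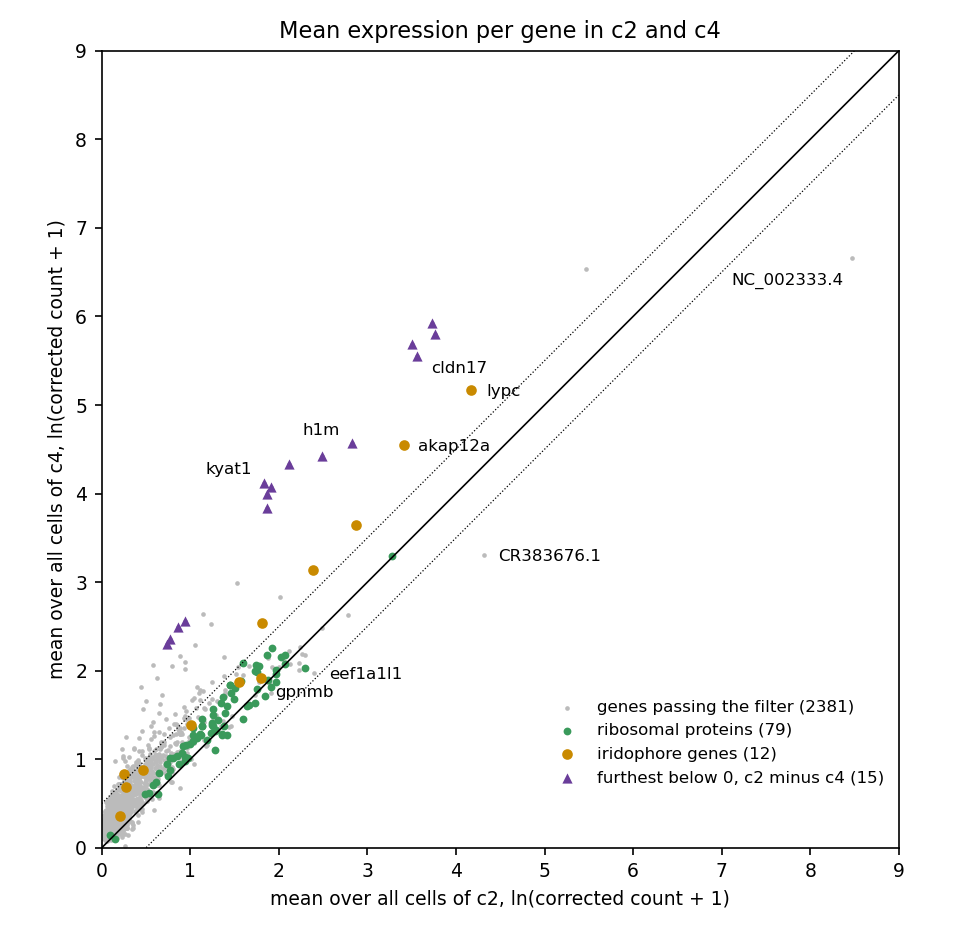
Each point is a gene, with its mean over all 176 cells of c2 on the horizontal axis and over all 82 cells of c4 on the vertical axis, in ln of corrected count plus 1. The solid line marks equal means and dotted lines mark a difference of 0.5. Most points lie above the solid line (2289 of 2381), the 15 genes furthest below 0 (triangles) stand clear of it, and only NC_002333.4 and CR383676.1 lie below the lower dotted line.

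The size and sign of the difference varied with how abundant a gene was elsewhere. Genes were ordered by their mean over c1, c3 and c5 together, which the difference does not use, and divided into 10 bins. In the lowest bins the expressing level was lower in c2, with medians of -0.66 and -0.81, whereas it was higher in c2 in the next 8 bins, with medians between 0.21 and 0.93. The difference in percent of cells was smallest at the low end (-8.13 and -6.96 points) and greatest in bins 8 and 9 (-34.2 points in each). Of the 122 genes lower in c2, 47 fell in the top bin and 28 in the one below it.

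**Figure D2:**
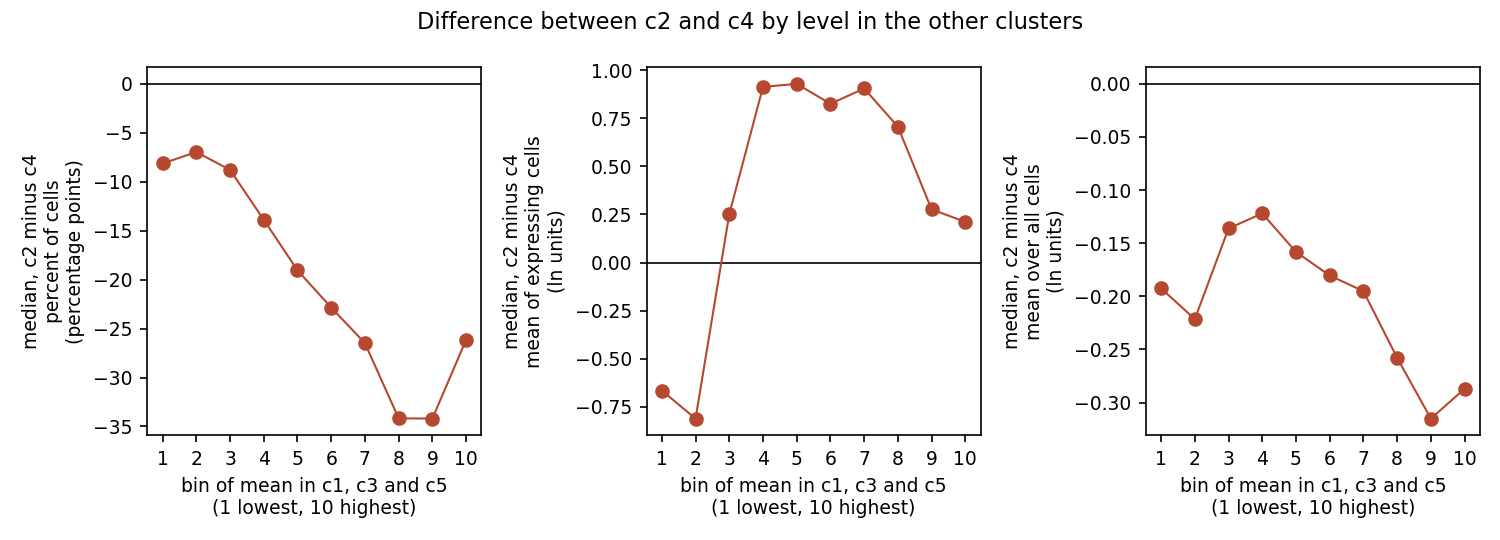
Median difference, c2 minus c4, in percent of cells (left, percentage points), in the mean of expressing cells (middle, ln) and in the mean over all cells (right, ln), for 10 bins of genes ordered by their mean in c1, c3 and c5. The middle panel is below 0 in the lowest bins and above 0 from bin 3 on, while the left and right panels are below 0 throughout.

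The lowest bins, 477 genes that c1, c3 and c5 barely expressed, were found in a median of 5.11% of c2 cells, 12.2% of c4 cells and 4.38% of the cells of c1, c3 and c5 together. Their expressing cells had a median level of 1.63 in c2 and 2.36 in c4. In 272 of the 477 the order of means was c4 above c2 above each of the other clusters. Such genes could enter only by reaching the filter in c2 or c4, mostly in c4, so the place of c4 in that order is largely set by the filter. Over all 2381 genes that order held for 364 (15.3%). The converse, c2 above c4 above the rest, held for 24 (1.01%). Both clusters lay below each of the others for 341 genes (14.3%), and c2 alone lay below the others with c4 among them for 713 (29.9%). For a further 330 (13.9%), c2 lay below and c4 above all 3 others. Across the 2381 genes, the means of c2 and c4 were correlated at Pearson's r = 0.92 (Spearman's rho 0.77), those of c2 and the other clusters together at 0.90 (0.73), and those of c4 and the other clusters together at 0.81 (0.69). These are correlations across genes of the same libraries and are given as a description only.

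All 15 genes with the lowest means in c2 relative to c4 followed the order c4 above c2 above c1, c3 and c5. kyat1, which encodes a kynurenine aminotransferase, averaged 1.84 ± 1.28 in c2 and 4.12 ± 1.23 in c4, where ± is the SD over the 176 and 82 cells here and for other genes, against 0.73 in c1, 0.90 in c3 and 0.54 in c5. It was found in 84.1% of c2 cells and 98.8% of c4 cells, so nearly all of its difference of -2.29 lay in the level of expressing cells (2.18 in c2, 4.17 in c4). rbm14b, an RNA-binding protein gene, averaged 2.12 ± 1.28 in c2 and 4.33 ± 1.29 in c4. bsnb, whose product Bassoon is a scaffold of presynaptic active zones, averaged 1.86 ± 1.40 in c2 and 3.996 ± 1.22 in c4. In these 3 genes c2 sat between the low level of c1, c3 and c5 and the high level of c4.

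Other members of the group were detected in most cells of all clusters. cldn17, which codes for a tight junction claudin, was present in 100% of c2 cells and 100% of c4 cells and averaged 3.56 ± 1.04 in c2 and 5.55 ± 0.75 in c4, against 2.58 in c1, 2.76 in c3 and 2.34 in c5. h1m, a linker histone known in zebrafish from oocytes and the early embryo, averaged 2.83 ± 1.24 in c2 and 4.57 ± 0.85 in c4, against 1.48 in c1, 1.65 in c3 and 1.19 in c5. Of the 15 genes 6 are named by clone, among them BX324216.3 (3.73 ± 1.08 in c2, 5.92 ± 0.70 in c4), CU929418.1 (3.76 ± 1.22 in c2, 5.80 ± 0.93 in c4) and zgc:158564 (3.50 ± 1.22 in c2, 5.69 ± 0.77 in c4).

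In the 11 genes furthest below 0, from kyat1 to h1m, the difference of means ran between -2.29 and -1.74. In each of them the part from the level was larger than that from the share, with medians of -1.82 and -0.22. Their lowest share in any cluster was 52.8% of cells. The remaining 4 differed in both ways. ctps1a, encoding a CTP synthase, was found in 47.7% of c2 cells and 92.7% of c4 cells and averaged 0.86 ± 1.12 in c2 and 2.50 ± 1.52 in c4. prkg1b, a cGMP-dependent protein kinase gene, was found in 41.5% of c2 cells and 86.6% of c4 cells. smndc1, a splicing factor gene, was found in 43.8% of c2 cells and 90.2% of c4 cells.

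**Figure D3:**
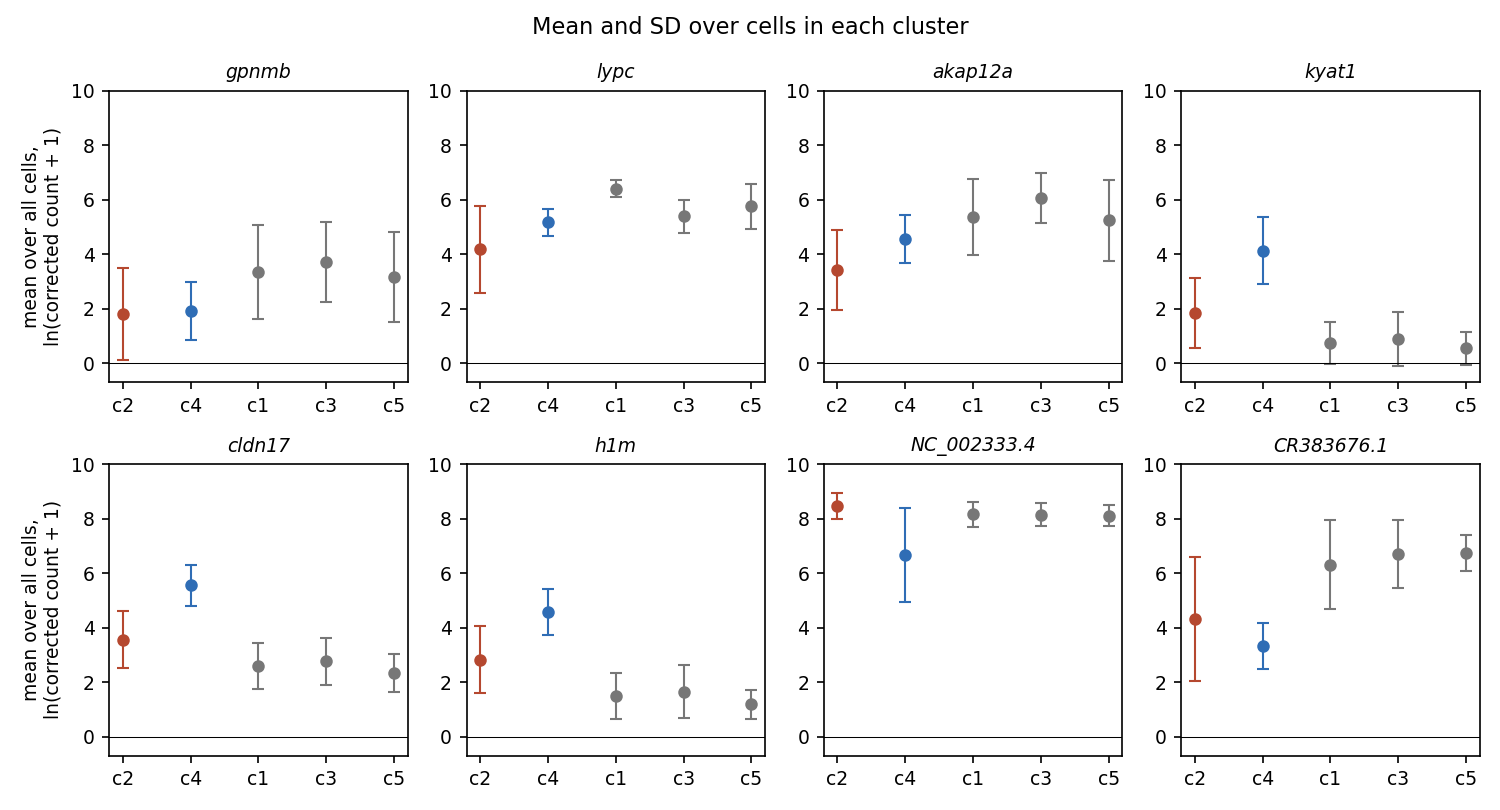
Mean over all cells (points) and SD over cells (bars) in ln of corrected count plus 1, for 8 genes in c2, c4, c1, c3 and c5. gpnmb, lypc and akap12a are lower in c2 and c4 than in c1, c3 and c5, kyat1, cldn17 and h1m are highest in c4 and next highest in c2, NC_002333.4 is lowest in c4 and CR383676.1 is lower in c2 and c4 than in the rest.

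Most iridophore genes had lower means in c2 and c4 than in the remaining clusters, 10 of 12 in c2 (58.1% over all genes) and 8 of 12 in c4 (14.5% over all genes). Of 17 measured genes of this list 12 passed the filter, 6 of them lower in c2 by size (5.12% over all genes) and 0 higher, and their median difference of means was -0.50, beside -0.20 over all genes. Low means in both clusters were not particular to iridophore genes. In the top bin of level in c1, c3 and c5, both clusters lay below the others for 150 of 238 genes. Of 79 ribosomal protein genes, 71 lay below each of the others in c2 and 58 in c4. lypc, abundant in iridophores, averaged 4.18 ± 1.60 in c2 and 5.17 ± 0.49 in c4, against 6.403 in c1, 5.38 in c3 and 5.75 in c5. akap12a, an A kinase anchoring protein gene, averaged 3.41 ± 1.47 in c2 and 4.55 ± 0.89 in c4, against 5.36 in c1, 6.04 in c3 and 5.24 in c5. Both were found in every cell of c4, whereas lypc was found in 89.8% and akap12a in 91.5% of c2 cells. apoda.1, of the apolipoprotein D family, averaged 2.87 ± 1.75 in c2 and 3.64 ± 1.21 in c4. defbl1, a beta defensin-like gene, averaged 2.38 ± 1.60 in c2 and 3.13 ± 1.40 in c4. fhl2a, a LIM domain gene, averaged 1.81 ± 1.52 in c2 and 2.54 ± 1.15 in c4. The least abundant of the 6 was tjp1a, a tight junction scaffold needed for normal iridophore arrangement, found in 21.6% of c2 cells (exact 95% interval 15.8 to 28.4%) and 59.8% of c4 cells (48.3 to 70.4%).

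All 5 iridophore markers of the study had lower means in c2 than in each of c1, c3 and c5, and 3 of the 5 did in c4. Their summed mean was 5.03 in c2 and 6.42 in c4, against 9.40 in c1, 10.0 in c3 and 8.32 in c5. By this strict rule, lower than each other cluster, each marker was low in c2, but in c4 only gpnmb, pnp4a and alx4a were. The study described levels as lower without stating such a rule. Against the mean of c1, c3 and c5 together, alx4b (0.99) and tfec (0.39) were also lower in c4, at 0.88 and 0.36. gpnmb, a melanosome and lysosome glycoprotein also abundant in iridophores, averaged 1.80 ± 1.67 in c2 and 1.92 ± 1.07 in c4, against 3.33 in c1, 3.70 in c3 and 3.15 in c5. It was found in 80.1% of c2 cells and 97.6% of c4 cells, while its expressing cells averaged 2.25 in c2 and 1.96 in c4. pnp4a, the gene behind both reporters, averaged 1.55 ± 1.52 in c2 and 1.87 ± 1.00 in c4, against 2.91 in c1, 2.86 in c3 and 2.75 in c5. The homeobox gene alx4a averaged 1.00 ± 1.35 in c2 and 1.39 ± 1.03 in c4, against 1.58 in c1, 2.17 in c3 and 1.45 in c5. Its relative alx4b averaged 0.46 ± 0.91 in c2 and 0.88 ± 0.93 in c4, against 1.13 in c1, 0.90 in c3 and 0.75 in c5. For tfec, a transcription factor of early pigment progenitors and iridophores, the means were 0.21 ± 0.82 in c2 and 0.36 ± 0.63 in c4, against 0.45 in c1, 0.38 in c3 and 0.23 in c5. Only tfec was higher by size in the expressing cells of c2, at 2.32 in 16 cells, against 0.93 in 32 cells of c4. By share, 4 of the 5 were at least 20 points lower in c2 (50.2% over all genes), the exception being gpnmb. By mean over all cells 0 of the 5 passed the size in either direction. The markers differed in how widely they were found: alx4b in 35.2% of c2 cells and 70.7% of c4 cells, and tfec in 9.09% of c2 cells and 39.0% of c4 cells, fewer in each cluster than gpnmb or pnp4a.

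Of 13 measured xanthophore genes, 9 had a larger share in c2 and 4 a larger share in c4, and 5 passed the filter. Of those 5, 3 had a larger share in c2, beside 22 of all 2381 passing genes. Among the 3, slc2a11b and bscl2l passed the filter through c2 alone, which fixed their direction, as it did for 15 of the 22. The count over all 13 includes genes that did not pass, and its share over all features is not given here. Without the filter, 12 immune genes had a larger share in c2 and 11 in c4, and for melanophore genes the counts were 6 and 7. They were 5 and 11 for neural crest and Schwann genes, and 1275 and 2772 for loci named by clone. slc2a11b, a sugar transporter family member needed for yellow pigment cells in medaka, was found in 19 of 176 c2 cells (10.8%, exact 95% interval 6.63 to 16.3%) and in 1 of 82 c4 cells (1.22%, 0.03 to 6.61%). In c1, c3 and c5 together its share was 1.55%. Its difference in share was the largest towards c2 of all genes that passed. pax7b, a paired box factor of xanthophore progenitors, was found in 10 c2 cells (5.68%) and 0 c4 cells (exact upper limit 4.399%), and in 2.58% of the cells of c1, c3 and c5. aox5, an aldehyde oxidase gene used as a xanthophore marker, was found in 7.95% of c2 cells and 4.88% of c4 cells, against 3.87% in the other clusters. Their expressing cells were few but not near the single count: the aox5 cells averaged 3.12 in c2 and 2.69 in c4, against 0.98 in the others.

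The exact intervals of pax7b overlapped, at 2.76 to 10.2% in c2 and up to 4.399% in c4. Those of aox5 also overlapped, at 4.42 to 12.99% in c2 and 1.34 to 12.02% in c4. The xanthophore genes that follow likewise had overlapping intervals, or the reverse order. bscl2l was found in 11.4% of c2 cells and 7.32% of c4 cells, scarb1, a carotenoid uptake receptor, in 15.3% of c2 cells and 10.98% of c4 cells, slc22a7a in 8.52% of c2 cells and 7.32% of c4 cells, and bco1 in 7.39% of c2 cells and 2.44% of c4 cells. gch2, the GTP cyclohydrolase that starts pteridine synthesis, was found in 13.1% of c2 cells (8.47 to 19.0%) and 30.5% of c4 cells (20.8 to 41.6%), but its expressing cells averaged 3.16 in c2 and 1.66 in c4. pax7a was found in 5.68% of c2 cells (2.76 to 10.2%) and 39.0% of c4 cells (28.4 to 50.4%), and also in 13.7% of the cells of c1, c3 and c5. All of these shares were minorities of their cluster, and whether the same cells carried several of these genes cannot be read from summaries per gene. The shares were not matched for depth, and fewer genes per cell were detected in c2, where most of these shares were the larger.

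**Figure D4:**
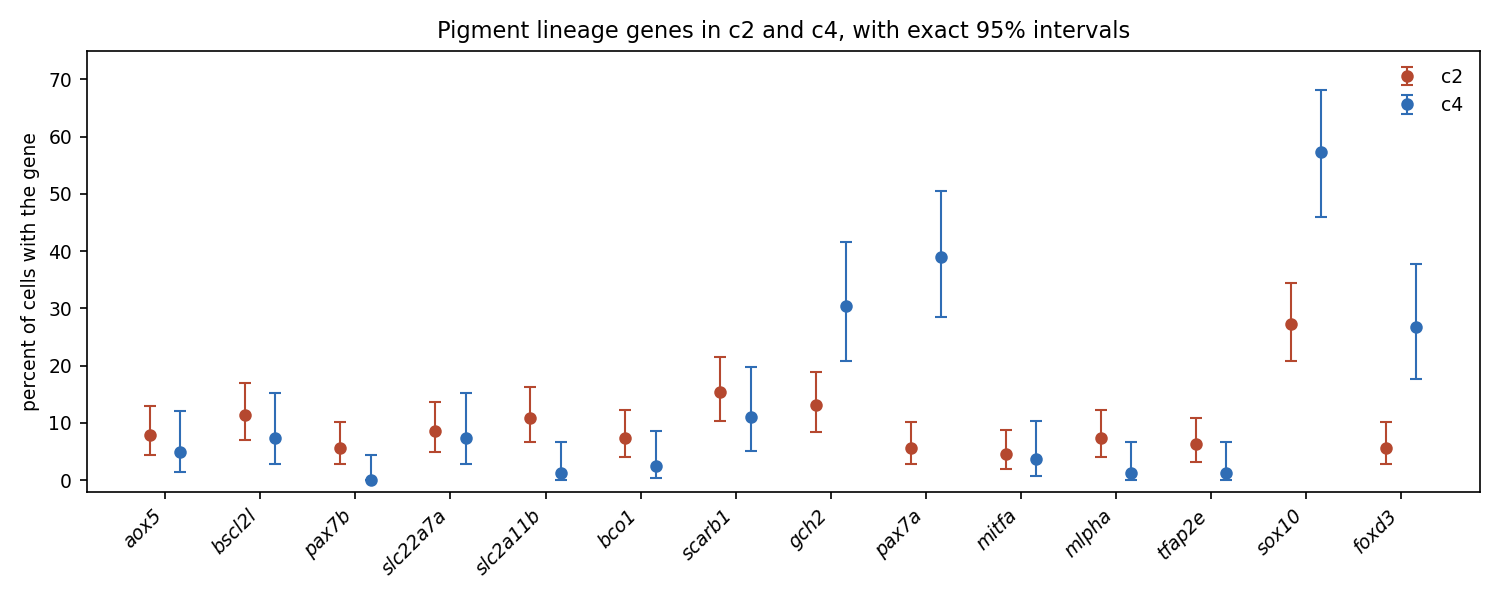
Percent of cells with each of 14 genes of xanthophores, melanophores and neural crest in c2 and c4, with exact 95% Clopper-Pearson intervals for counting error. slc2a11b, the gene furthest towards c2 in share among all that passed, lies at 10.8% in c2 and 1.22% in c4. Its intervals do not overlap, but their limits nearly meet (6.63% in c2 and 6.61% in c4). gch2, pax7a, sox10 and foxd3 are lower in c2.

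Melanophore genes were scarce in both clusters with 1 exception. trpm1b, an ion channel gene, was found in 68.2% of c2 cells and 93.9% of c4 cells and averaged 1.39 ± 1.54 in c2 and 1.72 ± 1.15 in c4. It was as frequent in c1, c3 and c5 (67.3%) as in c2, and so was not particular to either cluster. mitfa, the master regulator of melanophores, was found in 4.55% of c2 cells and 3.66% of c4 cells, and tyrp1b, a melanin synthesis gene, in 3 cells of each cluster. mlpha, melanophilin, was found in 13 c2 cells (7.39%, exact 95% interval 3.99 to 12.3%) and in 1 c4 cell (1.22%, 0.03 to 6.61%), against 1.80% of the cells of c1, c3 and c5.

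Among the 16 measured neural crest and Schwann cell genes, 5 passed the filter, with a median difference of means of -0.13. sox10, which all pigment lineages and Schwann cells need, was found in 27.3% of c2 cells (20.8 to 34.5%) and 57.3% of c4 cells (45.9 to 68.2%), against 23.97% in c1, c3 and c5. Its expressing cells averaged 1.82 in c2 and 0.99 in c4, so that the means over all cells were 0.50 ± 1.11 in c2 and 0.57 ± 0.66 in c4. foxd3, a factor of early crest, was found in 5.68% of c2 cells and 26.8% of c4 cells, with expressing means of 2.37 in c2 and 1.11 in c4. snai2 followed with 7.95% of c2 cells and 26.8% of c4 cells. zeb2a had nearly equal shares, 13.6% in c2 and 13.4% in c4. tfap2e, a factor shared by pigment cell lineages, went the other way, with 6.25% of c2 cells and 1.22% of c4 cells. For sox10, foxd3, gch2 and tfec alike, c2 had fewer positive cells at a higher level and c4 more at a lower one, as did 71.4% of all genes.

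Markers of other cell types were then read in both clusters. Of 18 keratinocyte genes 8 passed the filter, with a median difference of means of -0.02. Its most abundant members were close in c2 and c4: krt8 averaged 2.26 ± 1.61 in c2 and 2.19 ± 1.17 in c4, against 2.36 in c1, 2.90 in c3 and 2.92 in c5. icn averaged 1.73 ± 1.70 in c2 and 1.73 ± 1.13 in c4. krt91 was found in 12.5% of c2 cells and 13.4% of c4 cells, against 5.41% of the others, and tp63, the regulator of basal keratinocytes, in 2.27% of c2 cells and 4.88% of c4 cells. Summed over the whole list the means were 9.05 in c2, 9.57 in c4, 9.17 in c1, 10.2 in c3 and 11.1 in c5.

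Of 25 dermal fibroblast genes 8 passed. Summed means were 3.37 in c2 and 5.05 in c4, against 2.32 to 2.702 in c1, c3 and c5, so this list was the highest in c4 and next highest in c2. Over all features the sum was likewise highest in c4 (2174), but lowest in c2 (1256). col1a2, a chain of type I collagen, was found in 10.8% of c2 cells and 18.3% of c4 cells, against 3.35% in the others. sparc, a matrix protein gene, was found in 48.3% of c2 cells and 75.6% of c4 cells, against 34.0% in the others. dcn and lum, defining fibroblast genes, were each found in 2.84% of c2 cells, with dcn in 6.10% and lum in 4.88% of c4 cells. Their part in the difference between c2 and c4 was not tested.

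Immune genes summed to 1.56 in c2 and 1.26 in c4, against 0.54 to 0.58 in c1, c3 and c5. The largest share in the list was 7.95% in c2 (cd74a) and 18.3% in c4 (coro1a), and the pan-leukocyte gene ptprc was found in 2.84% of c2 cells and 2.44% of c4 cells. c1qb, a complement gene of macrophages, was found in 5.11% of c2 cells and 1.22% of c4 cells. Endothelial genes summed to 0.63 in c2 and 1.16 in c4, erythrocyte genes to 0.09 in c2 and 0.23 in c4, and neuron genes to 0.30 in c2 and 1.096 in c4, and 0 genes of the endothelial and erythrocyte lists passed the filter. Of 17 muscle genes, ttn.1 (titin) and neb (nebulin) alone passed. ttn.1 averaged 0.62 ± 1.05 in c2 and 1.92 ± 1.63 in c4, against 0.31 in c1, 0.33 in c3 and 0.18 in c5. The abundant muscle genes acta1b, myhz1.1 and pvalb2 were each found in at most 1.70% of c2 cells and 2.44% of c4 cells. Others were more frequent in 1 of the clusters. actc1b was found in 3.98% of c2 cells and 2.44% of c4 cells, with expressing means of 3.94 in c2 and 4.40 in c4. ckmb was found in 3.98% of c2 cells, and in c4 acta1a in 4.88% and tpma in 3.66% of cells. All were far less frequent than ttn.1, found in 32.4% of c2 cells and 75.6% of c4 cells. Of 28 proliferation genes 5 passed, and top2a, a gene of dividing cells, was found in 2.27% of c2 cells and 6.10% of c4 cells.

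Immediate early genes, which dissociation and other stimuli induce quickly, had a median difference of means of -0.23, beside -0.20 over all genes. Of the 27 that passed, 25 were lower in c2, a share near the 96.1% over all genes, and 6 were lower by size (5.12% over all genes). Summed over the whole list, the means were 18.3 in c2 and 26.4 in c4, against 22.4 in c1, 23.97 in c3 and 43.3 in c5. By that sum c5 was the highest cluster, and c4 lay above c1 and c3. Over all features c4 (2174) also lay above c1 (1612) and c3 (1696), so its place above them is not particular to this list. There c4 lay above c5 (1731) as well. Of the 27 genes, 18 had lower means in c2 than in each of c1, c3 and c5 (58.1% over all genes), and 1 did in c4 (14.5% over all genes). ier2a averaged 1.095 ± 1.28 in c2 and 1.75 ± 1.28 in c4, against 3.25 in c5. jun, a subunit of the AP-1 factor, averaged 1.06 ± 1.32 in c2 and 1.58 ± 1.09 in c4, against 2.53 in c5. btg2, an antiproliferative gene, averaged 0.82 ± 1.13 in c2 and 1.39 ± 1.096 in c4. The means of fosab were close: this gene, which encodes Fos, averaged 2.24 ± 1.54 in c2 and 2.27 ± 1.15 in c4, against 5.23 in c5. By share, 24 of the 27 were at least 20 points lower in c2 (50.2% over all genes).

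Purine synthesis and salvage, the pathway that feeds iridophore crystals, had 14 of 30 genes past the filter. By mean over all cells 0 of them passed the size, and the median was -0.26, while 12 were at least 20 points lower in c2 by share (50.2% over all genes) and 9 were higher in c2 by expressing level (46.7% over all genes). gmps, GMP synthase, was found in 21.6% of c2 cells and 58.5% of c4 cells, with expressing means of 1.27 in c2 and 1.25 in c4. atic, which completes the purine ring, was found in 12.5% of c2 cells and 53.7% of c4 cells, with expressing means of 1.85 in c2 and 1.19 in c4. mthfd2, of mitochondrial one-carbon metabolism, was found in 19.3% of c2 cells and 56.1% of c4 cells.

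The same split held in nearly every list of general cell machinery. For ribosomal proteins, 79 of 82 genes passed, and their medians were -22.4 points in share, 0.31 in expressing level and -0.14 in mean over all cells. By mean over all cells 0 of them passed the size, and 15 of the 92 genes with a higher mean in c2 belonged to it. rpl11, of the large subunit, averaged 2.29 ± 1.77 in c2 and 2.03 ± 1.05 in c4, whereas rpl15 averaged 1.59 ± 1.62 in c2 and 2.09 ± 1.22 in c4. Nuclear genes of oxidative phosphorylation (49 passing of 100) had medians of -28.8 points, 0.79 and -0.18, and those of the secretory pathway (26 of 60) had the highest expressing difference of the lists with at least 5 passing genes, 1.11, at -23.8 points and -0.15. ssr4, of the translocon of the endoplasmic reticulum, was found in 5.68% of c2 cells at an expressing mean of 2.002 and in 47.6% of c4 cells at 1.01. The proteasome (23 of 53) had medians of -20.0 points, 0.77 and -0.19, translation factors (37 of 78) of -26.3 points, 0.72 and -0.19, and splicing factors with hnRNPs (34 of 81) of -22.0 points, 0.70 and -0.17. Set beside the medians over all genes (-20.1 points, 0.44 and -0.20), these lists had similar or larger gaps in share and, except for ribosomal proteins, a larger excess of c2 in expressing level. Except for ribosomal proteins, their median levels in c1, c3 and c5 fell in bins 5 to 7. All genes of those bins had medians of 0.93, 0.83 and 0.90 in expressing level, and -19.0, -22.9 and -26.5 points in share. Only the secretory pathway had a larger excess in expressing level than the genes of its bin.

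The remaining lists followed the same pattern with few genes past the size in means. Chaperones (19 passing of 87) had a median of -0.20 and 1 gene lower in c2, hspa8, a constitutive Hsp70, at 1.02 ± 1.26 in c2 and 1.67 ± 1.26 in c4. Subunits of the vacuolar ATPase, which acidifies organelles (8 of 26), had a median of -0.16, and lysosome and pigment organelle genes (15 of 29) one of -0.19, with 0 genes past the size in both lists. Tubulins and stathmins (5 of 22) had -0.32 with 0 genes past the size, and p53 and apoptosis genes (6 of 21) had -0.16 with mcl1b, an inhibitor of apoptosis, lower in c2. Ubiquitin ligases and conjugating enzymes (36 of 248) had -0.17 with 0 genes past the size. Solute carriers (28 of 353) had -0.23 with slc9a6a, an endosomal sodium/proton exchanger gene, lower in c2. Collagens (11 of 54) had -0.23 with 2 lower, and keratins and claudins (7 of 38) -0.11 with 1 lower, cldn17. Loci named by clone (205 of 4146) had -0.18, with 24 lower in c2 and 1 higher. The share lower by size was thus above the 5.12% of all genes for loci named by clone, and those loci include 6 of the 15 genes furthest below 0, which are described above. It was also above 5.12% for chaperones, p53 and apoptosis genes, collagens, and keratins and claudins, but there it rests on 1 or 2 genes in each list. The study's own xanthophore markers summed to 0.95 in c2 and 0.57 in c4, against 0.06 to 0.14 in c1, c3 and c5. Its melanophore markers summed to 0.09 in c2 and 0.09 in c4, against 0.01 in c1, 0.06 in c3 and 0 in c5. By these sums both sets were higher in c2 and c4, whereas the study described other pigment cell markers as lower there.

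**Figure D5:**
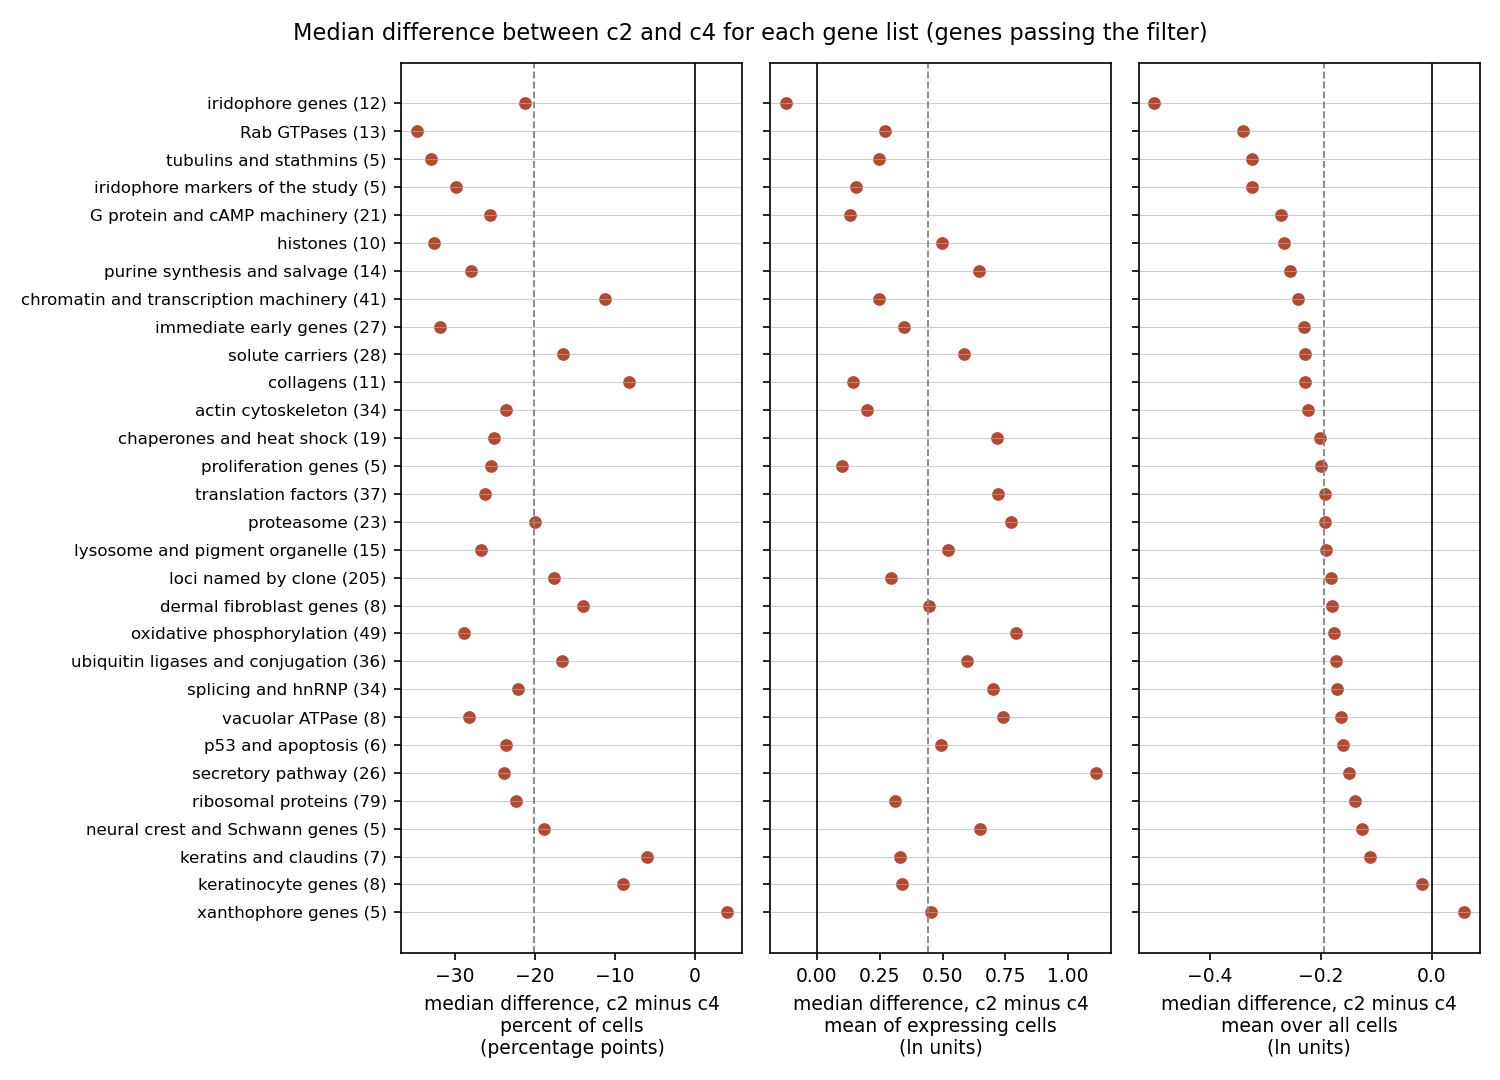
Median difference, c2 minus c4, over the passing genes of each list with at least 5 of them (number in brackets), in percent of cells (left), in the mean of expressing cells (middle, ln) and in the mean over all cells (right, ln). Solid lines mark 0 and dashed lines the medians over all genes that passed (-20.1 points, 0.44 and -0.20). Iridophore genes have the lowest median in the right panel (-0.50) and the only one below 0 in the middle panel (-0.12), and xanthophore genes the only ones above 0 in the left and right panels. Those 2 xanthophore medians are the values of bscl2l, which passed the filter through c2 alone.

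The lists of signalling and cytoskeletal genes each held a few genes past the size in means. Among 21 passing genes of G protein and cAMP signalling, 4 were lower in c2 by size (5.12% over all genes). gna13a, a G protein alpha subunit gene, averaged 1.53 ± 1.32 in c2 and 2.99 ± 1.50 in c4, against 0.59 in c1, 0.79 in c3 and 0.46 in c5. rgs16, a regulator of G protein signalling, was found in 9.66% of c2 cells and 51.2% of c4 cells. akap12a, above, and akap12b, at 0.96 ± 1.16 in c2 and 1.54 ± 1.07 in c4, were the other members, and both lay below their levels in c1, c3 and c5. Of 34 actin cytoskeleton genes 3 were lower in c2 by size (5.12% over all genes). actb1, cytoplasmic beta-actin, averaged 0.93 ± 1.26 in c2 and 1.59 ± 1.11 in c4, flnb, filamin B, 0.83 ± 1.25 in c2 and 1.51 ± 1.63 in c4, and tpm1, tropomyosin, 1.04 ± 1.32 in c2 and 1.69 ± 1.56 in c4. For flnb and tpm1, c2 and c4 were both above c1, c3 and c5.

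The gap in share was wide for some single genes. alcama, an adhesion molecule of the immunoglobulin superfamily, was found in 17.6% of c2 cells (12.3 to 24.1%) and 67.1% of c4 cells (55.8 to 77.1%) and averaged 0.15 ± 0.41 in c2 and 0.98 ± 1.13 in c4, against 0.70 in c1, 0.97 in c3 and 0.43 in c5. itga6b, an integrin subunit, was found in 31.3% of c2 cells and 75.6% of c4 cells. trpa1b, an ion channel gene known from sensory neurons, was found in 26.1% of c2 cells and 75.6% of c4 cells, and sts, steroid sulfatase, in 32.4% of c2 cells and 79.3% of c4 cells. The greatest gap of all was that of zgc:91818, in 23.3% of c2 cells and 73.2% of c4 cells. Of the basement membrane collagens, col4a1 averaged 0.38 ± 0.91 in c2 and 0.97 ± 1.01 in c4, and col4a2 0.95 ± 1.35 in c2 and 1.45 ± 0.98 in c4.

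Rab GTPases, which direct vesicle traffic, had the largest median gap in share of the lists shown, -34.7 points over 13 passing genes. rab5c, of early endosomes, was found in 27.3% of c2 cells and 69.5% of c4 cells. rab32a, known for its part in pigment organelle traffic, was found in 21.6% of c2 cells and 58.5% of c4 cells. rab1ab, of transport from the endoplasmic reticulum to the Golgi, averaged 0.31 ± 0.68 in c2 and 1.02 ± 1.19 in c4. Histone genes (10 passing of 16) had a median of -32.6 points, with h3f3c in 38.1% of c2 cells and 73.2% of c4 cells. Of 41 chromatin and transcription genes, 2 were lower in c2 by size, a share near the 5.12% over all genes. crebbpb, a histone acetyltransferase, averaged 0.66 ± 1.04 in c2 and 1.63 ± 1.48 in c4, and kmt2bb, a histone methyltransferase, 0.36 ± 1.02 in c2 and 0.89 ± 1.20 in c4.

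The 2 genes higher in c2 by size in the mean over all cells were both among the most abundant in the table. NC_002333.4, a locus on the mitochondrial genome sequence by its name, was found in every cell and averaged 8.48 ± 0.48 in c2 and 6.66 ± 1.71 in c4, against 8.16 in c1, 8.14 in c3 and 8.10 in c5. It was therefore the level of c4 that stood apart, lower and with a wider spread over cells. The methods state that mitochondrial features were removed, and this row was among several with the same name stem that the deposited summaries still held. Another such locus, NC_002333.17, did not follow it, at 1.13 ± 1.72 in c2 and 1.39 ± 1.46 in c4. CR383676.1, which the reference names pair with malat1, a long noncoding RNA retained in the nucleus, averaged 4.31 ± 2.26 in c2 and 3.31 ± 0.84 in c4, against 6.31 in c1, 6.69 in c3 and 6.75 in c5. Both clusters were thus low in it, with less spread between the cells of c4. Next came the elongation factor gene eef1a1l1, at 2.40 ± 1.86 in c2 and 1.97 ± 1.03 in c4, below the size used.

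By share, 22 genes were more frequent in c2, none by 20 points, and the largest share any of them had in c2 was 15.3% (scarb1). Of these 22, 15 had a share under 10% in c4 and so passed the filter through c2 alone, and 3 belonged to the xanthophore list. rgcc, a regulator of the cell cycle, was found in 10.2% of c2 cells and 4.88% of c4 cells, and sox6, a transcription factor gene, in 14.2% of c2 cells and 10.98% of c4 cells. Among expressing cells the greatest excess of c2 was that of rpp38, a ribonuclease P subunit gene, at 3.47 in 18 c2 cells, against 0.86 in 21 c4 cells. s100u averaged 3.40 in 18 c2 cells and 0.84 in 28 c4 cells, and uqcrc1, of respiratory complex III, 3.29 in 10 c2 cells and 0.78 in 18 c4 cells. Each was rare in c2 at a high level and more frequent in c4 at about the level of a single corrected count.

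Levels also varied more between the expressing cells of c2 than between those of c4. Over 1621 genes with at least 10 expressing cells in both clusters, the median SD was 1.19 in c2 and 0.91 in c4, and it was higher in c2 for 1263 genes (77.9%). Expressing means lay under 2 corrected counts for 685 genes in c4 and 57 in c2. Whether the narrower spread of c4 follows from that was not tested. The wider spread of c2 included most iridophore genes that passed, lypc having an SD over expressing cells of 0.78 in c2 and 0.49 in c4, against 0.30 in c1, 0.60 in c3 and 0.46 in c5. For pnp4a it was 1.43 in c2 and 0.99 in c4, against 1.43 in c1, 1.47 in c3 and 1.39 in c5. The wider spread did not include tjp1a, at 1.01 in c2 and 1.11 in c4. The mitochondrial NC_002333.4 was another exception, as given above.

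Of 19914 features, 18811 were found in any cell of c2 and 17523 in any cell of c4. Genes seen in 1 of the clusters only were therefore not rare, and the most frequent of them are named. oacyl, of the acyltransferase family, was found in 16 c2 cells (9.09%, exact 95% interval 5.29 to 14.3%) and in 0 of 82 c4 cells (exact upper limit 4.399%), against 2.06% of the cells of c1, c3 and c5. rab34b, si:ch73-389b16.1 and dyrk3 were each found in 12 c2 cells (6.82%) and 0 c4 cells. In the other direction, mpp3a and pdpk1a were each found in 0 of 176 c2 cells (exact upper limit 2.07%) and in 8 c4 cells (9.76%, 4.31 to 18.3%). These are the most frequent of the genes absent from 1 cluster, chosen for that among 19914 features.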

How the data were processed

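Cells of 4 light and 4 dark plates were sorted into single wells, and transcripts were counted by unique molecular identifiers. By the methods and processing notes, the authors used bcl2fastq 2.20, Cutadapt, STAR with STARsolo on GRCz11, and SCTransform and clustering in Seurat. For 19914 features and 5 clusters, the authors' deposited summaries give the cell count of each cluster, the percent of its cells that held a gene and, for those cells alone, the average and SD of the depth-corrected count on a natural log scale (after adding 1). SCTransform brings cells to a common depth, which can raise or remove low values, so shares and low levels depend on it. A second deposited table, with the authors' comparison of c5 and c3 (fold changes and p-values), was not used. Of the identifiers, 18929 were found in the reference names; 108 symbols stood on more than 1 row.

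Means and SDs over all cells were rebuilt from the share, mean and SD of expressing cells, and genes per cell are the summed shares (Python 3.11.15, pandas 2.3.3, scipy 1.17.1). The sums of the count tables were not analysed here, so precision is given by the numbers of cells: 176 in c2 and 82 in c4. Intervals are exact Clopper-Pearson at 95%, and 0 cells stands beside its upper limit. No test was made, no doublet caller was run on pooled summaries, and shares were not thinned to equal depth. The calculation was tested on simulated data.

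The clusters, the 38 gene lists and the rules were chosen with earlier results of these data known. Named are the study's markers, the 15 genes with the largest difference of means in each direction, the 10 largest in percent and in expressing level (at least 10 cells in both clusters), from each list up to 4 of the members past a size, by largest difference (for a list with none, its 2 most abundant), and up to 5 genes absent from 1 cluster. Other members of the lists (such as icn, krt8, ptprc, top2a, bco1, mlpha, tfap2e, fosab) were chosen after their values were seen. Alternatives were other filters, other sizes, and centring on the median of all genes or within bins of level. A gene that the rule names is not reported here.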

Additional observations from a re-analysis of the deposited data

How the results depend on the processing

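The median difference of means over all cells was -0.20, so differences near it do not set a gene apart from the rest. Under a filter of 5% of either cluster and with no filter, the median difference in percent was -5.53 and -1.30 points. The counts for expressing cells depended most on the filter: genes lower in c2 numbered 1659 at 5%, 2577 with no filter, 40 at 25% and 68 when 10% of both clusters was required, which left 369 genes higher and 741 lower in percent. The share of genes higher in c2 among those past the size was 73.1% for expressing cells as reported, 43.6% at 5%, 35.8% with no filter, 94.99% at 25% and 84.4% with 10% of both clusters. The excess of genes higher in c2 was thus reversed at 5% and with no filter. After centring on the median of all genes, the median in percent is 0 by construction, with 26 genes higher and 54 lower in percent (32.5% higher), 539 higher and 626 lower in expressing cells (46.3% higher) and 55 lower in mean. Centring within bins of level, where the median is again 0, gave 11 higher and 10 lower in percent (52.4% higher), 297 higher and 263 lower in expressing cells (53.04% higher), and 6 higher and 46 lower in mean (11.5% higher). By size, 557 genes were lower at 30 points, 480 higher and 111 lower at 1 in expressing cells, and, in means, 4 higher and 785 lower at 0.25 and 31 lower at 1. List medians changed sign as follows. In expressing cells, ubiquitin genes had -0.31 at 5% and -0.30 with no filter, solute carriers -0.24 at both and -0.14 within bins, neural crest genes -0.22 with no filter, and purine genes -0.0779 and splicing genes -0.052 within bins. In percent, the proteasome had 0.083 after centring on the median. Within bins the medians in percent were 4.89 for iridophore genes, 1.11 for proliferation, 0.73 for p53, 5.15 for ribosomal proteins, 1.21 for oxidative phosphorylation, 0.24 for translation factors, 0.78 for the proteasome, 1.42 for splicing, 0.40 for chaperones, 0.93 for the vacuolar ATPase, 0.37 for tubulins and 0.094 for histones. The cause was not tested. No paired analysis was possible because the light and dark plates share no numbers and the summaries pool all plates; for the same reason no plate could be left out.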

Other observations

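A few single genes outside the lists are named here after their values were seen, and no theme was tested over them. ttn.2, the second titin gene, averaged 0.68 ± 1.06 in c2 and 1.72 ± 1.63 in c4, against 0.19 in c1, c3 and c5 together. syne1b, which encodes a nesprin of the nuclear envelope, averaged 0.64 ± 1.08 in c2 and 1.52 ± 1.37 in c4. pclob, the presynaptic scaffold Piccolo, averaged 0.25 ± 0.69 in c2 and 0.80 ± 1.27 in c4. The plectin gene plecb averaged 1.07 ± 1.45 in c2 and 1.81 ± 1.27 in c4.

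Others had a lower mean in c2 by the same size. nfe2l2a, the transcription factor of the oxidative stress response, averaged 1.24 ± 1.33 in c2 and 2.53 ± 1.30 in c4, against 1.01 in c1, c3 and c5 together. csf1a, a ligand of the receptor that xanthophores need, averaged 0.36 ± 0.70 in c2 and 1.12 ± 1.18 in c4, against 1.04 in the others. lgals2a, a galectin gene, averaged 2.02 ± 1.57 in c2 and 2.83 ± 1.12 in c4, against 4.20 in the others.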
